A study of Mus musculus with 8 samples.

Results

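The 9 genes *Fabp3*, *Cd36*, *Lpl*, *Angptl4*, *Pltp*, *Plin1*, *Plin2*, *Scd1* and *Scd2* take up, release, store or desaturate fatty acids and are known as targets of the peroxisome proliferator-activated receptors (PPARs). They were picked by name from the 54532 genes of the table, and all 9 were found. The choice was made with their values known, since several were higher in MFN2 cKO than in MFN2 WT libraries. The differences between genotypes therefore chose the genes and are given below as a description, with no test, whereas stage and age played no part in the choice and were tested.

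PPARs are nuclear receptors that fatty acids activate and that bind DNA as pairs with a retinoid X receptor (RXR). Their targets include the proteins that bring fatty acids into a cell, carry them in the cytosol, coat lipid droplets and introduce double bonds into fatty acids. In the testis, lipid droplets are a feature of Sertoli cells, which take up residual cytoplasm and dying germ cells, and of Leydig cells, which make testosterone from cholesterol.

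The data were RNA-seq of spermatocytes from C57BL/6J mice, in 8 libraries of 1 sample each. MFN2, or mitofusin-2, is a protein of the outer mitochondrial membrane that joins mitochondria to each other. The libraries held pachytene (P) spermatocytes or leptotene and zygotene (L/Z) spermatocytes, from mice at postnatal day (PD) 24 or PD 52. MFN2 WT mice were Mfn2 loxp/loxp without Cre, and MFN2 cKO mice were Mfn2 loxp/loxp with Stra8-Cre, so that all groups carried the floxed allele. The methods also allow controls with a single floxed allele. Stra8-Cre acts in male germ cells from the spermatogonial stage on, so somatic cells of the testis keep a functional gene. The germ cells had been separated by sedimentation, and whether animals were pooled is not given in the sources used here. With 1 library per group, no group has a spread of its own, and the 4 pairs of MFN2 cKO and MFN2 WT (P at PD 24, P at PD 52, L/Z at PD 24 and L/Z at PD 52) are the unit of every comparison of genotypes. Where a pair of values is given below, the MFN2 WT value precedes the MFN2 cKO value.

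Between 14340665 and 20379950 reads fell on genes in each library. *Mfn2* itself was lower in MFN2 cKO in all 4 pairs, at 39.6, 50.1, 34.3 and 47.9 FPKM (fragments per kilobase of gene length) against 77.1, 62.2, 82.2 and 97.5 FPKM in MFN2 WT, in the order of pairs above. The deposited FPKM were scaled between libraries by the median of gene ratios and not by total reads. The pair P at PD 52 had the smallest difference, with 80.5% of the MFN2 WT level. The stage labels were borne out by some markers and not by others. Summed over 8 markers of leptotene and zygotene cells, the libraries labelled P held 158 to 229 FPKM and those labelled L/Z held 89.5 to 195. The 8 pachytene markers summed to 3708 to 5490 FPKM in P and 3052 to 5148 in L/Z. Among them *Piwil1* was at 168 to 278 FPKM in P and at most 40.5 in L/Z, and *Pou5f2* at 44.2 to 63.3 and 3.78 to 4.37, both called higher in P by limma (adjusted p of 0.00163 and 0.000816) and named here after their values were seen. *Mybl1* was called higher in P too, and *Pgk2* of the same list lower, by a log2 difference of -0.88 (adjusted p from limma of 0.0149). Of the leptotene and zygotene markers *Spo11* (1.22), *Hormad1* (1.09), *Sycp3* (0.71) and *Meiob* (0.56) were called higher in P. *Dmc1* (-0.74), *Prdm9* (-0.55) and *Mei1* (-0.45) were lower in P without being called. Summed over 8 spermatid markers, the libraries labelled L/Z at PD 52 held 10030 and 18726 FPKM, while the other 6 ranged from 90.9 to 4494. Both are named below as the L/Z libraries at PD 52. Tests of stage and age were repeated without them, and the larger shifts are given below. Levels in such bulk samples cannot tell apart fewer cells of a type from less RNA per cell.

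*Cd36* encodes a membrane protein that takes up long-chain fatty acids. The gene lies on the minus strand of chromosome 5 (chr5:17781690-17888801, GRCm38), and its transcripts share no stretch of 50 bases with another gene. The P pairs held 0.138 and 1.17 FPKM at PD 24 and 1.35 and 6.77 FPKM at PD 52. The L/Z pairs held 0.649 and 2.70 FPKM at PD 24 and 0.242 and 2.06 FPKM at PD 52. The MFN2 cKO library was thus the higher of each pair by 4.16 to 8.51 times, although the lowest MFN2 WT values rest on 10 and 13 reads. The ranges of the genotypes overlapped over all 8 libraries, since P MFN2 WT at PD 52 exceeded P MFN2 cKO at PD 24.

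*Fabp3* encodes a fatty acid-binding protein of the cytosol, best known from heart and muscle. It lies on the plus strand of chromosome 4 (chr4:130308595-130315463). Its level in P spermatocytes was 4.34 and 31.0 FPKM at PD 24 and 67.3 and 152 FPKM at PD 52. The L/Z libraries had 9.13 and 59.1 FPKM at PD 24 and 6.33 and 39.2 FPKM at PD 52. The library of P MFN2 WT at PD 52 stood apart from the other 3 MFN2 WT libraries and above 3 of the 4 MFN2 cKO libraries. Within pairs the ratio of MFN2 cKO to MFN2 WT was 7.15 (95% interval 5.57 to 9.30), 2.26 (2.08 to 2.45), 6.47 (5.41 to 7.79) and 6.20 (4.87 to 7.98), where the interval comes from the reads and covers counting error only. Of its 50-base windows, 37.3% also occur in another gene, mostly in the pseudogene *Fabp3-ps1* (29.2%), and the gene overlaps *Gm10570* and *Zcchc17* on the opposite strand. *Fabp3-ps1* ranged from 2.79 to 6.68 FPKM and was higher in MFN2 cKO in 3 of 4 pairs, *Zcchc17* ranged from 2.37 to 4.96, and *Gm10570* was under 1 FPKM throughout and higher in MFN2 cKO in all 4 pairs. The part of reads shared with these genes was not tested.

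Upstream sequence was on hand for 5 of the 9 genes, not for *Angptl4*, *Scd1*, *Scd2* and *Lpl*. The 250 bases before the RefSeq start of each gene were searched on both strands for AGGTCA, the hexamer at the core of the sites that PPARs share with other nuclear receptors. It occurs in 14% of 32851 mouse promoters of that length, and in those of *Cd36* and *Plin2* but not of *Fabp3*, *Pltp* and *Plin1*. The windows that hold it are shown because these genes differed in how they varied with genotype, with *Cd36* higher in MFN2 cKO in 4 pairs and *Plin2* in 1. Both are from RefSeq on GRCm38.p6, minus strand, chr5:17835897-17836146 for *Cd36* and chr4:86670060-86670309 for *Plin2*. Capitals mark the hexamer, which lies opposite to the direction of the gene and so reads TGACCT, and begins 228 bases before the RefSeq start used for *Cd36* and 218 before that of *Plin2*. The *Cd36* window lies inside the span of the gene given above, so it precedes an internal start.
Cd36: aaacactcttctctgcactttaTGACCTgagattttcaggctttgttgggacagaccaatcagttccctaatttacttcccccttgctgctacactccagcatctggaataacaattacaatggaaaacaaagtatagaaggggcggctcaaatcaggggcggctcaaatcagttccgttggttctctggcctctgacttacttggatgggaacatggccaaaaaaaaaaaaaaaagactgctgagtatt
Plin2: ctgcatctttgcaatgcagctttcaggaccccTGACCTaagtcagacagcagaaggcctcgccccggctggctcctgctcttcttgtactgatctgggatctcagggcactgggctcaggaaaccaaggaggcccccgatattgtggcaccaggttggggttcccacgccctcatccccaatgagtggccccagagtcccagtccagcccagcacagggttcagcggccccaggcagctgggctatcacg
A second copy 1 base away, the spacing of a full PPAR site, was in neither window and in 0.0335% of all promoters. A match of letters is a description of the sequence and shows no binding.

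*Lpl* encodes lipoprotein lipase, which frees fatty acids from triglycerides of lipoproteins. It was the least abundant of the 9 genes, under 1 FPKM in every library, with 9 to 110 reads. The pairs of P libraries had 0.0899 and 0.164 FPKM at PD 24 and 0.0535 and 0.125 FPKM at PD 52. The corresponding values of the L/Z libraries were 0.278 and 0.592 FPKM, then 0.108 and 0.659 FPKM. Each MFN2 cKO library was the higher of its pair, yet the intervals of the ratio in both P pairs reached down to 1.00 and 1.01.

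*Angptl4* encodes a secreted inhibitor of that lipase, and it responds strongly to PPARs in many tissues. P spermatocytes had 1.01 and 3.83 FPKM of it at PD 24 and 0.967 and 3.19 FPKM at PD 52. L/Z spermatocytes had 2.83 and 8.44 FPKM at PD 24 and 0.956 and 2.52 FPKM at PD 52. *Angptl4* had the most even difference between genotypes among the genes that were higher in MFN2 cKO, with ratios from 2.64 to 3.79. L/Z MFN2 WT at PD 24 lay above 1 MFN2 cKO library, and the other 3 MFN2 WT libraries lay close to 1 FPKM and below every MFN2 cKO library.

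*Pltp* encodes the phospholipid transfer protein, which moves phospholipids between lipoproteins. Low levels of 1.12 and 3.50 FPKM at PD 24 and of 1.17 and 1.67 FPKM at PD 52 were measured in P spermatocytes. The levels in L/Z spermatocytes were 6.61 and 14.1 FPKM at PD 24 and 3.26 and 18.2 FPKM at PD 52. The difference between genotypes ran from a ratio of 1.43 in P at PD 52, whose interval of 0.964 to 2.13 includes equality, to 5.59 in L/Z at PD 52. *Pltp* shares 10.8% of its 50-base windows with *Ctsa*, which overlaps it on the opposite strand and was at 3.53 and 6.51, 2.12 and 3.26, 5.01 and 8.13, and 1.69 and 4.51 FPKM in the 4 pairs, higher in MFN2 cKO in each as *Pltp* was. The strandedness of the libraries is not given in the sources used here, so reads in the overlap could belong to either gene.

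*Plin1* encodes perilipin-1, the droplet coat of fat cells and steroid-making cells. The P pairs read 0.235 and 0.994 FPKM at PD 24 and 0.375 and 1.23 FPKM at PD 52, and the L/Z pairs 0.342 and 1.65 FPKM, then 0.201 and 0.471 FPKM. The MFN2 cKO library was the higher of each pair, with ratios from 2.34 to 4.83. The counts behind them are low, from 14 to 136 reads.

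*Plin2* encodes perilipin-2, the droplet coat found in most cells. It measured 5.73 and 3.29 FPKM in the P pair at PD 24 and 14.5 and 10.2 FPKM in that at PD 52. The L/Z pairs measured 9.92 and 9.47 FPKM, then 17.5 and 22.7 FPKM. *Plin2* was the exception among the 9 genes. Its MFN2 cKO level was lower in both P pairs, with ratios of 0.574 (0.485 to 0.679) and 0.702 (0.627 to 0.784), within counting error in L/Z at PD 24, and higher in L/Z at PD 52, with a ratio of 1.29 (1.18 to 1.41). The summed FPKM of the 8 spermatid markers had ratios of 0.0794, 0.441, 0.146 and 1.87 in the same order, and its part in the result was not tested. It shares 2.57% of its windows with the pseudogene *Gm12551*. The ratio of *Plin2* to *Plin1* FPKM was 24.4, 38.6, 29.0 and 87.2 in MFN2 WT and lower in each MFN2 cKO partner, at 3.31, 8.26, 5.74 and 48.1.

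*Scd1* and *Scd2* encode stearoyl-CoA desaturases, which turn saturated into monounsaturated fatty acids and lie 87591 bases apart on chromosome 19. *Scd1* had 0.543 and 1.69 FPKM in the P pair at PD 24 and 0.851 and 4.70 FPKM in that at PD 52. In the L/Z pairs *Scd1* had 0.482 and 1.77 FPKM, then 0.318 and 0.990 FPKM. In each pair *Scd1* was higher in MFN2 cKO, with ratios from 3.11 to 5.53.

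*Scd2* was much the more abundant desaturase and had a different pattern. Its P pairs held 38.8 and 54.0 FPKM at PD 24 and 31.1 and 32.5 FPKM at PD 52. Its L/Z pairs held 18.3 and 18.4 FPKM at PD 24 and only 2.16 and 5.92 FPKM at PD 52. The MFN2 cKO library was nominally the higher in each pair, but in P at PD 52 and L/Z at PD 24 the ratios of 1.05 (0.991 to 1.10) and 1.00 (0.939 to 1.07) were within counting error. The ratio of *Scd2* to *Scd1* FPKM was 71.4, 36.5, 38.0 and 6.79 in MFN2 WT and 32.0, 6.91, 10.4 and 5.98 in MFN2 cKO. These genes share few windows with each other or with *Scd3*, 4.56% for *Scd1* and 3.97% for *Scd2*.

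**Figure D1:**
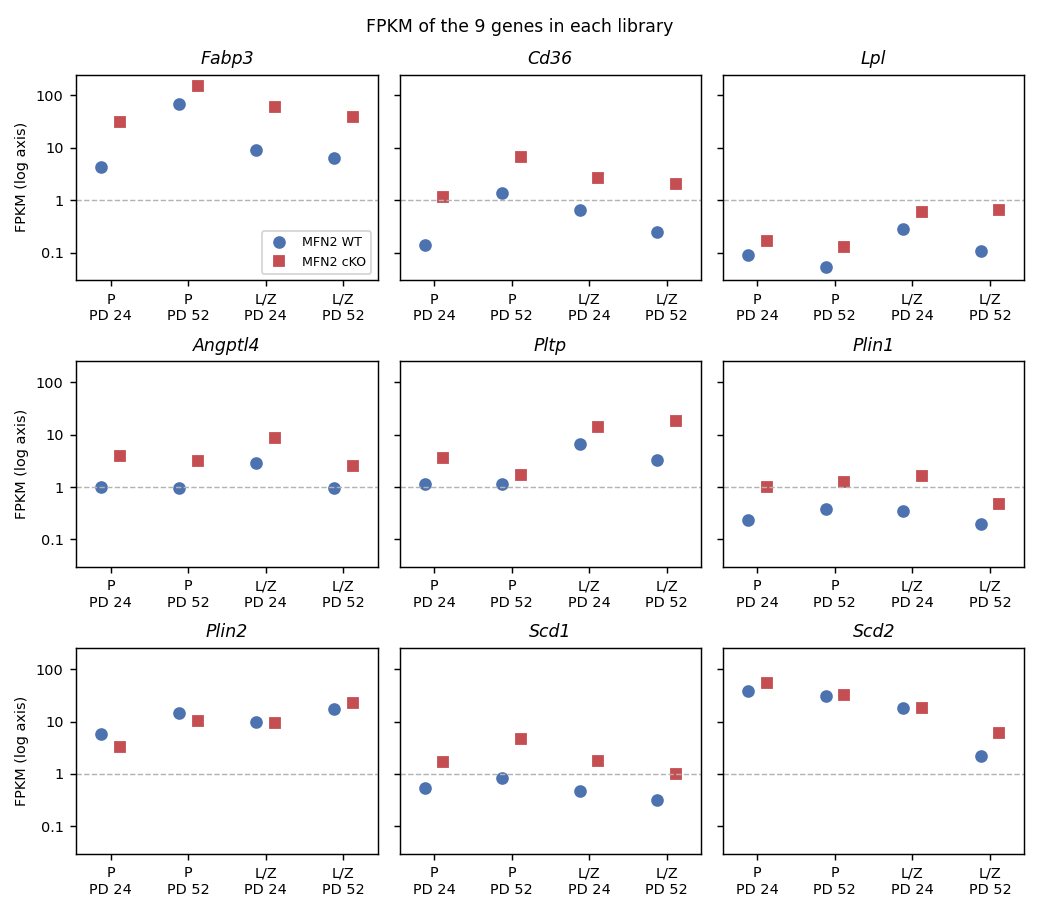
FPKM of each of the 9 genes (log axis, the same in every panel) in the 8 libraries, with MFN2 WT as blue circles and MFN2 cKO as red squares, and the dashed line at 1 FPKM. The red square lies above the blue circle in every pair for 8 genes and in 1 of 4 pairs for Plin2, and the levels span 0.0535 FPKM for Lpl to 152 for Fabp3.

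The order of the 9 genes by level changed with the library. *Scd2* ranked highest in both P libraries at PD 24 and in L/Z MFN2 WT at PD 24, *Plin2* in L/Z MFN2 WT at PD 52, and *Fabp3* in the other 4. *Lpl* ranked lowest in 7 libraries and *Plin1* in L/Z MFN2 cKO at PD 52.

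The differences between MFN2 cKO and MFN2 WT were also set on a scale common to all genes, as the difference in log2(FPKM + 1), which understates the change of genes under a few FPKM. On this scale 8 of the 9 genes were higher in MFN2 cKO in all 4 pairs, 7 of them among the 8 that had FPKM above 1 in at least 1 library. Of all 21175 genes with such a level, 7.74% were higher in all 4 pairs. *Fabp3* alone of the 9 was at least 2-fold higher on this scale in every pair, by 2.59, 1.16, 2.57 and 2.46, a pattern held by 0.227% of all genes. With nothing added to the FPKM, *Cd36*, *Angptl4*, *Plin1* and *Scd1* were also at least 2 times as high in every pair, with lowest ratios of 4.16, 2.64, 2.34 and 3.11, and 1.02% of all genes were. Since this contrast had chosen the genes, nothing is read from these shares.

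In P spermatocytes at PD 24, 3 genes (*Fabp3*, *Angptl4* and *Pltp*) of the 7 above 1 FPKM were at least 2-fold higher in MFN2 cKO, and 1.79% of all genes were. At PD 52 there were 4 of 8 (*Fabp3*, *Cd36*, *Angptl4* and *Scd1*), against 5.21% of all genes. L/Z spermatocytes at PD 24 had 3 of 8 (*Fabp3*, *Cd36* and *Angptl4*), against 3.45% of all genes. At PD 52 they had 4 of 6 (*Fabp3*, *Cd36*, *Pltp* and *Scd2*), against 4.83%. None of the 9 was 2-fold lower in any pair, where 6.29%, 5.78%, 7.03% and 3.12% of all genes were. The median difference over the 9 genes was 0.80, 0.70, 0.98 and 0.85, and that over all genes was -0.10, -0.05, 0.08 and 0.02.

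**Figure D2:**
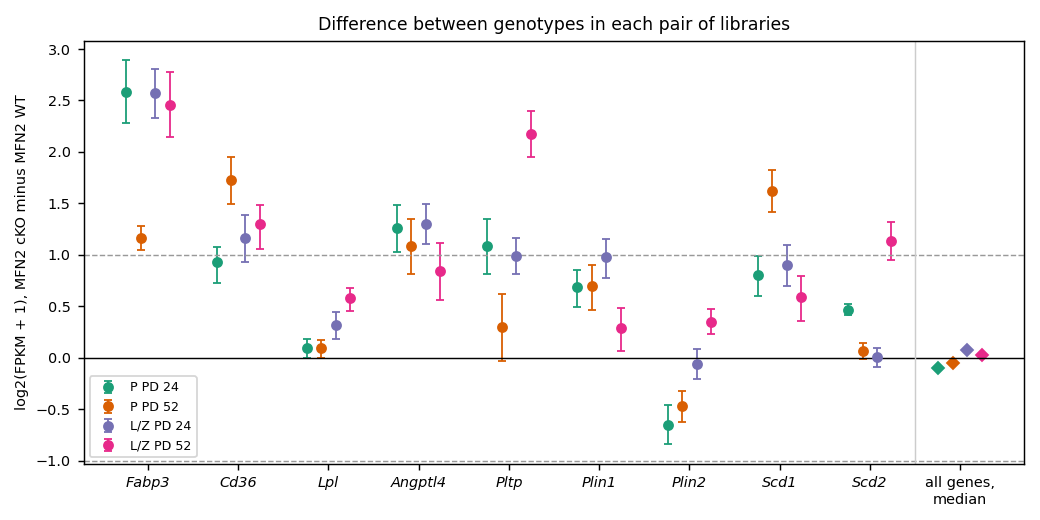
Difference in log2(FPKM + 1) between MFN2 cKO and MFN2 WT for each gene and pair, with 95% intervals that cover counting error only, beside the median over all genes in each pair (diamonds). Dashed lines mark a 2-fold difference. Fabp3 is past that line in all 4 pairs, from 1.16 to 2.59, and Plin2 lies between -0.65 and 0.35.

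Markers of other testis cells differed between genotypes in the same pairs. The summed FPKM of 8 Leydig cell markers, among them *Star*, *Cyp17a1* and *Insl3*, was 20.7 to 261 in MFN2 WT and 102 to 666 in MFN2 cKO libraries. All 8 were higher in MFN2 cKO in every pair, and none was at 0 in any library. The ratio of their sum in MFN2 cKO to MFN2 WT was 6.82, 2.55, 5.61 and 3.61, beside 7.15, 2.26, 6.47 and 6.20 for *Fabp3*. Among MFN2 WT libraries P at PD 52 had the most of both. The part of Leydig cell RNA in the result was not tested.

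The summed FPKM of 8 macrophage markers, such as *Csf1r*, *Lyz2* and *C1qa*, was 9.24 to 40.9 in MFN2 WT and 22.8 to 174 in MFN2 cKO. The sum was higher in MFN2 cKO by 2.18, 2.47, 3.13 and 7.97 times, with 8, 7, 8 and 8 of its 8 genes higher. *Pltp* had ratios of 3.12, 1.43, 2.13 and 5.59 in the same pairs. The 8 endothelial markers summed to 3.65 to 5.17 FPKM in MFN2 WT and 5.19 to 8.40 in MFN2 cKO. The part of these cells in the result was not tested either.

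Fat cells express many of the 9 genes, and most of their markers were at or near 0. *Cfd* was at 0 in 7 libraries and *Lep* in 5, and *Fabp4* stayed between 0.0442 and 0.268 FPKM. Only *Adipoq*, at 0.934 to 15.8 FPKM, and *Retn* of the 6 adipocyte markers exceeded 1 FPKM anywhere, and the sum of the 6 was 4.51 to 14.6 FPKM in MFN2 WT and 1.93 to 17.8 in MFN2 cKO. The 8 Sertoli cell markers summed to 4.68 to 131 FPKM in MFN2 WT and 12.2 to 151 in MFN2 cKO, with ratios of 1.15, 0.429, 0.722 and 2.60. The 5 erythroid markers summed to at most 8.94 FPKM but for 59.0 in L/Z MFN2 cKO at PD 24. The part of fat cells, Sertoli cells and erythroid cells in the result was not tested.

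**Figure D3:**
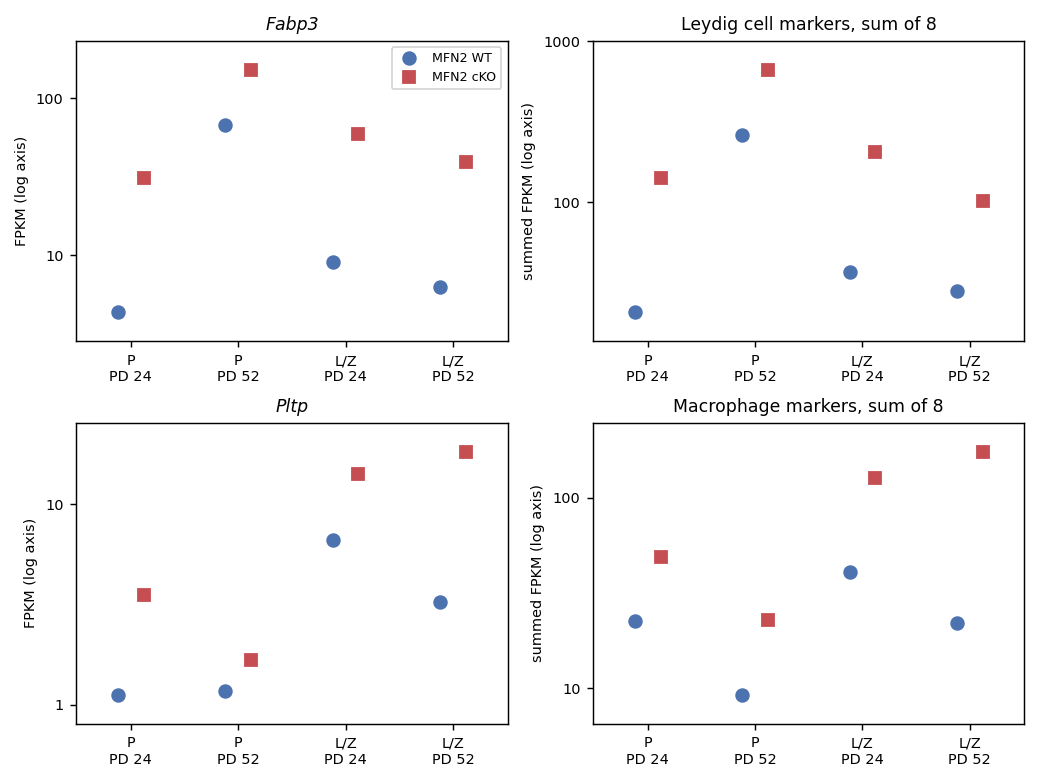
FPKM of Fabp3 and Pltp beside the summed FPKM of 8 Leydig cell markers and of 8 macrophage markers in the 8 libraries, all on log axes with a scale of their own, with MFN2 WT as blue circles and MFN2 cKO as red squares. Fabp3 and the Leydig sum are both highest in P at PD 52 (152 and 666 in MFN2 cKO), and Pltp and the macrophage sum are both highest in L/Z MFN2 cKO at PD 52 (18.2 and 174).

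Stage and age were tested with limma over all genes, in a fit of genotype, age and stage to the 8 libraries. The 4 pairs of libraries that differ only in stage, or only in age, serve as replicates. Since nothing says that the libraries came from separate animals, the p-values measure only the spread between these samples.

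Between stages, *Scd2* was higher in P spermatocytes, and *Pltp* and *Plin2* were lower. *Scd2* was higher in P by 2.04 (SE 0.35) on the log2 scale, in 4 of 4 pairs, at an adjusted p from limma of 0.00882. *Pltp* was lower in P by a log2 difference of -1.85 (SE 0.27), in 4 of 4 pairs, at an adjusted p from limma of 0.00598. *Plin2* differed by -0.83 (SE 0.20), lower in P in 4 of 4 pairs, at an adjusted p from limma of 0.0217. Among all genes 11.8% were called higher in P and 13.6% lower, so that 1 higher and 2 lower of the 8 genes tested is a share near the background.

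The call of *Plin2* was the least firm of these. Its adjusted p from limma was 0.0826 without P MFN2 cKO at PD 24, 0.0712 without P MFN2 cKO at PD 52, 0.0806 without L/Z MFN2 WT at PD 24 and 0.0675 without L/Z MFN2 cKO at PD 52. Without both L/Z libraries at PD 52 it was 0.0700, and *Scd2* then differed by 1.27 in place of 2.04, at an adjusted p from limma of 0.0502. *Pltp* remained called in that fit, at -1.79 and 0.0361.

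Marker sums moved with the stage differences too. The Sertoli cell sum was 131, 151, 102 and 43.6 FPKM in the libraries labelled P (MFN2 WT and MFN2 cKO at PD 24, then at PD 52) and 53.0, 38.3, 4.68 and 12.2 in those labelled L/Z, in the order in which *Scd2* was at 38.8, 54.0, 31.1 and 32.5, and at 18.3, 18.4, 2.16 and 5.92. The sum of 6 peritubular myoid markers was 37.8 to 59.5 FPKM in P and 161 to 208 in L/Z, and that of the macrophage markers 9.24 to 48.8 in P and 21.9 to 174 in L/Z. The spermatid sum was lower in P in each of the pairs in which *Plin2* was, at 1145 against 2272 and 90.9 against 333 FPKM at PD 24, and 4494 against 10030 and 1980 against 18726 at PD 52. The part of these cells in the differences of *Scd2*, *Pltp* and *Plin2* was not tested.

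The other 5 genes tested did not pass. *Fabp3* was lower in P at PD 24 in both genotypes, by -0.92 and -0.91, and higher in P at PD 52, by 3.22 and 1.93, giving a mean of 0.83 (SE 0.68) at an adjusted p from limma of 0.394. With 1 library left out that mean ran from 0.13 without P MFN2 WT at PD 52 to 1.36 without P MFN2 WT at PD 24. *Cd36* had the same signs as *Fabp3* at each age, with a mean of 0.24 (SE 0.36). The means of *Scd1*, *Plin1* and *Angptl4* were 0.51 (SE 0.26), 0.07 (SE 0.21) and -0.41 (SE 0.24). *Lpl* was left out by the filter at 1 FPKM, and in a fit without that filter it differed by -0.33 (SE 0.10), lower in P in 4 of 4 pairs, at an adjusted p from limma of 0.0916.

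Between ages, *Plin2* was higher at PD 52 and *Scd2* was lower. *Plin2* was higher by 1.13 (SE 0.20), in 4 of 4 pairs, at an adjusted p from limma of 0.0102. The spermatid sum was also higher at PD 52 than at PD 24 in each of these pairs, at 4494 against 1145 FPKM in P MFN2 WT, 1980 against 90.9 in P MFN2 cKO, 10030 against 2272 in L/Z MFN2 WT and 18726 against 333 in L/Z MFN2 cKO. The part of spermatid RNA in the difference of *Plin2* was not tested. In the fit without both L/Z libraries at PD 52 the difference was 1.29, at an adjusted p from limma of 0.0561. Of all genes 13.5% were called higher at PD 52 and 7.55% lower, a split that turned with the scaling of the libraries, to 2242 higher and 2491 lower in place of 2857 and 1598 when they were scaled to their total of reads.

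*Scd2* differed by -1.28 (SE 0.35) with age, lower at PD 52 in 4 of 4 pairs, at an adjusted p from limma of 0.0382. Its values at the ages overlapped, and the L/Z MFN2 WT libraries differed most, at 18.3 FPKM at PD 24 and 2.16 at PD 52. The Sertoli cell sum was lower at PD 52 in the same 4 pairs, at 102 against 131 and 43.6 against 151 FPKM in P, and 4.68 against 53.0 and 12.2 against 38.3 in L/Z, and its part was not tested. The call rested on most of the libraries, since its adjusted p from limma was 0.0678 without P MFN2 cKO at PD 24, 0.0765 without P MFN2 cKO at PD 52, 0.113 without L/Z MFN2 WT at PD 24, 0.0963 without L/Z MFN2 cKO at PD 24, 0.0634 without L/Z MFN2 WT at PD 52 and 0.109 without L/Z MFN2 cKO at PD 52. Without both L/Z libraries at PD 52 the difference was -0.51. With a block for each pair of libraries the adjusted p from limma was 0.0626.

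None of the other 6 genes tested passed for age. *Fabp3* differed by 1.22 (SE 0.68), at an adjusted p from limma of 0.219. It was called only in the fit without both L/Z libraries at PD 52, at 2.97. *Angptl4* was lower at PD 52 in 4 of 4 pairs, by -0.66 (SE 0.24), at an adjusted p from limma of 0.0862. Without both L/Z libraries at PD 52 its difference was -0.12. *Pltp* had a mean of -0.30 (SE 0.27).

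*Fabp3*, *Cd36*, *Scd1* and *Plin1* were higher at PD 52 than at PD 24 in P spermatocytes and lower in L/Z spermatocytes, in both genotypes. The share of all genes with these signs was not counted, so nothing is read from the number of genes that had them. *Fabp3* in P was 15.5 times as high at PD 52 as at PD 24 in MFN2 WT and 4.90 times in MFN2 cKO, against 0.693 and 0.664 times in L/Z. The Leydig cell sum was 261 FPKM at PD 52 and 20.7 at PD 24 in P MFN2 WT, and 28.2 and 36.8 in L/Z MFN2 WT. A term for stage by age in limma gave a difference of 3.49 (SE 0.54) for *Fabp3*, with an adjusted p from limma of 0.430. The same term was 1.79 (SE 0.35) for *Cd36*, 1.00 (SE 0.41) for *Scd1* and 0.66 (SE 0.36) for *Plin1*. Of all 21175 genes 0% passed in this test, while 1062 had an unadjusted p under 0.05, and with protein-coding genes only 8 passed, none of them among these 4.

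**Figure D4:**
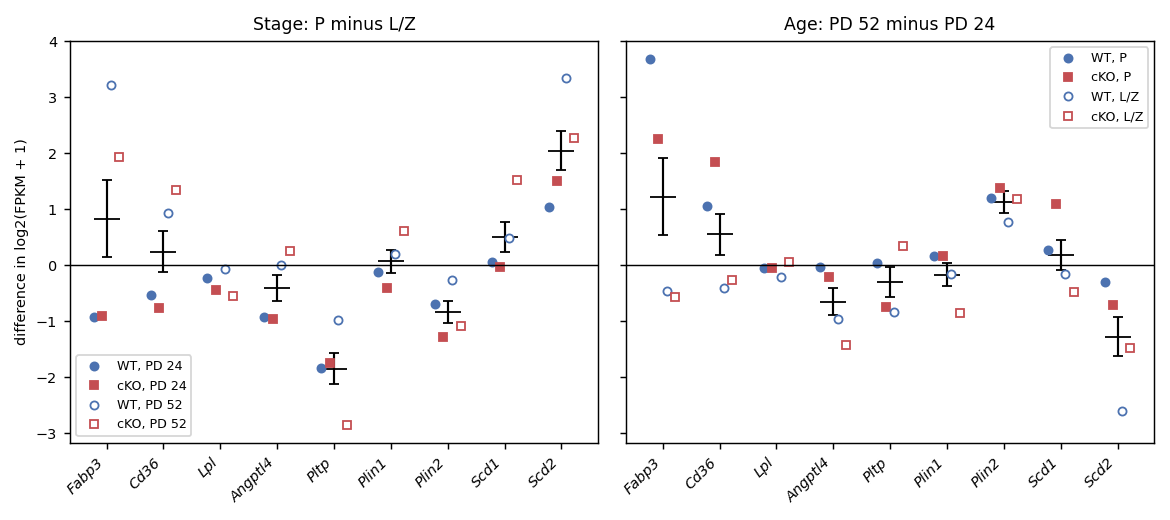
Differences in log2(FPKM + 1) between stages (left, P minus L/Z) and ages (right, PD 52 minus PD 24) for each gene, with blue circles for MFN2 WT pairs and red squares for MFN2 cKO pairs, filled for PD 24 or P and open for PD 52 or L/Z, and black bars for the limma estimate ± SE (none for Lpl, which the filter at 1 FPKM left out of this fit). Scd2 lies above 0 in all 4 stage pairs (2.04 ± 0.35) and Plin2 in all 4 age pairs (1.13 ± 0.20), and the Fabp3 pairs lie on both sides of 0 in both panels.

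The 9 genes did not vary as a single group. Over the 8 libraries the correlation of log2(FPKM + 1) was 0.966 for *Pltp* and *Lpl*, 0.929 for *Cd36* and *Fabp3*, 0.921 for *Scd1* and *Cd36*, and 0.886 for *Plin1* and *Angptl4*. The lowest was -0.781, for *Scd2* and *Plin2*. These libraries share the same genotype, stage and age contrasts, so the values are a description of n = 8 points.

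Among 9189 protein-coding genes at 5 FPKM or more in at least 1 library, the patterns most like that of *Fabp3* were those of *Ephx1* (r = 0.983), *Cyp17a1* (0.981) and *Klk1b24* (0.980). *Cyp17a1* is among the Leydig cell markers above and ranged from 1.88 to 204 FPKM. *Cd36* was followed most closely by *Aqp2* (0.988), *Adh1* (0.953) and *Ephx1* (0.948). *Scd1* was nearest to *Aldh1l1* (0.957), *Amy1* (0.950) and *Itih2* (0.935).

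*Pltp* lay closest to *Tgfbi* (0.983), *Dcn* (0.982) and *Gsn* (0.981), and *Lpl* to *Unc93b1* (0.987), *Plau* (0.981) and *Gsn* (0.980). *Dcn* encodes decorin, a proteoglycan of connective tissue. For *Angptl4* the nearest were *Sult1a1* (0.980), *H6pd* (0.979) and *Osr2* (0.978), and for *Plin1* they were *Tcn2* (0.988), *Vcam1* (0.973) and *Hmgcs1* (0.970), the last an enzyme of cholesterol synthesis.

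*Plin2* had by far the most followers, with 1089 genes at r above 0.9 against 11 for *Cd36* and 16 for *Fabp3*. The nearest were *Tekt2* (0.997), which encodes a protein of the sperm flagellum, *4930415O20Rik* (0.996) and *1700016K19Rik* (0.996). *Scd2* had 253 such genes, led by *Clu* (0.986), *Prcd* (0.981) and *Gsta4* (0.980). *Clu* encodes clusterin, a protein that Sertoli cells secrete, and ranged from 11.9 to 385 FPKM.

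The wider pathways were taken as 6 lists of 76 further genes, of which 55 had FPKM above 1 in at least 1 library. Over all lists 11 genes were called higher and 6 lower in P, and 8 higher and 10 lower at PD 52, beside the 11.8%, 13.6%, 13.5% and 7.55% of all genes given above. Between genotypes 1, 3, 4 and 2 genes were at least 2-fold higher in MFN2 cKO and 2, 1, 2 and 0 lower, in the order of pairs above, with 15 higher and 3 lower in all 4 pairs. Of all genes 1.79%, 5.21%, 3.45% and 4.83% were 2-fold higher, 7.74% were higher in all 4 pairs and 5.66% were lower in all 4. Genes named here beyond the most abundant and the most different between genotypes were chosen after their values were seen.

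Of 18 genes of fatty acid uptake and transport, 11 passed the filter, and on the log2(FPKM + 1) scale none was 2-fold different between genotypes in any pair. *Fabp9*, the fatty acid-binding protein of the acrosome, was the most abundant at 229 to 549 FPKM, followed by the transporter *Slc27a1* at 8.99 to 18.1. *Fabp12* and *Slc27a2* had the largest mean differences between genotypes, -0.47 and -0.34. In FPKM with nothing added they were further apart in some pairs, *Slc27a2* at 0.830 and 0.165 FPKM in P at PD 52 and 1.23 and 0.237 in L/Z at PD 52, and *Fabp12* at 2.19 and 0.907 in P at PD 24 and 4.69 and 1.94 in L/Z at PD 24. In limma *Fabp5* (0.80) and *Slc27a6* (1.52) were called higher in P and *Fabp12* lower, while *Fabp9* (0.76) and *Fabp12* (1.74) were called higher at PD 52, and *Fabp5*, *Slc27a6* and *Lrp1* were among those called lower.

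Lipoprotein lipolysis and exchange was the list nearest to the 9 genes in its genotype differences. Of 12 genes 7 passed, and 4 of them (*Apoe*, *Apoc1*, *Abca1* and *Lipg*) were higher in MFN2 cKO in all 4 pairs, with list medians of 0.65, 1.07, 0.88 and 0.40. *Apoe*, which encodes the apolipoprotein that macrophages and steroid-making cells secrete, was at 11.8, 10.9, 28.4 and 13.4 FPKM in MFN2 WT and at 34.9, 28.5, 109 and 147 in MFN2 cKO. Its mean difference of 2.01 came close to the 2.19 of *Fabp3*. *Apoc1* had a mean difference of 0.91 and *Lmf1*, a chaperone of *Lpl*'s product, -0.11. *Lipg* and *Angptl8* were called higher in P and *Apoe* lower, and no gene of the list was called for age.

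Droplet storage, with 14 of 17 genes above the filter, had list medians between genotypes of -0.08, -0.17, -0.04 and 0.08. *Bscl2*, which encodes seipin, was at 58.7 to 87.9 FPKM. *Dgat2*, the enzyme of the last step of triglyceride synthesis, was at 27.6, 64.3, 60.3 and 104 FPKM in MFN2 WT and at 12.3, 43.8, 33.5 and 110 in MFN2 cKO, and *Agpat2* had the largest mean difference of the list, -0.79. Both were lower in MFN2 cKO in each pair but L/Z at PD 52, as was the spermatid sum, with ratios of 0.0794, 0.441, 0.146 and 1.87. The part of spermatid RNA in these differences was not tested. *Dgat2*, *Agpat2*, *Lpin1* and *Fitm1* were called higher at PD 52 and *Gpam* lower. In P spermatocytes *Plin5*, *Cidea*, *Dgat1*, *Gpam* and *Fitm2* were called higher and *Dgat2*, *Lpin1* and *Fitm1* lower. *Dgat2*, *Lpin1* and *Fitm1* of this list thus shared the calls of *Plin2* for stage and for age.

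Droplet lipolysis was measured by 5 genes, all above the filter. *Pnpla2*, the main triglyceride lipase of droplets, was at 93.9 to 135 FPKM with a mean genotype difference of -0.11. *G0s2*, which encodes an inhibitor of that lipase, was higher in MFN2 cKO in all 4 pairs, at 1.30, 1.11, 8.09 and 2.98 FPKM against 0.512, 0.501, 1.76 and 0.460. *Lipe* had a mean difference of -0.66, and *Mgll* was lower in MFN2 cKO in all 4 pairs, with a mean of -0.35. *Mgll* was called higher in P by 2.44, and *Lipe* and *Abhd5* were called higher at PD 52.

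Of 14 measured genes of desaturation and synthesis, 8 were higher in MFN2 cKO in all 4 pairs, and on the log2(FPKM + 1) scale none was 2-fold different in any. In FPKM with nothing added *Fads1* (11.5 and 23.4) and *Elovl6* (0.698 and 1.98) in P at PD 52 and *Elovl1* (1.15 and 2.36) in L/Z at PD 52 were past that size. The fatty acid desaturases *Fads1* and *Fads2* had the largest mean differences, 0.77 and 0.53. *Fads2* was, like *Scd2*, lower in L/Z spermatocytes at PD 52 (7.75 and 10.9 FPKM) than at PD 24 (26.7 and 31.2 FPKM), and was called higher in P by 1.54. *Me1*, at 64.0 to 109 FPKM, and *Elovl2*, at 68.8 to 114, were the most abundant. *Elovl1*, *Fasn*, *Acly* and *Srebf1* were called lower at PD 52.

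The receptor genes were 2-fold different between genotypes in no pair on the log2(FPKM + 1) scale. *Pparg* was at 0.739 to 1.70 FPKM with a mean difference of 0.14 and its widest pair in L/Z at PD 52 (0.814 and 1.41 FPKM), and *Rxra* and *Rxrb* had means of -0.12 and -0.28. *Rxra* differed most in L/Z at PD 24, at 8.20 and 4.93 FPKM. Of the 6 receptor genes 4 passed the filter, with list medians of -0.08, -0.12, -0.04 and -0.05. These medians rest on the 2, 2, 4 and 3 genes above 1 FPKM in each pair, which in P were *Rxra* and *Rxrb* only. *Rxra* was called lower in P, and *Rxrb*, which was lower in MFN2 cKO in all 4 pairs, was called lower at PD 52.

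**Figure D5:**
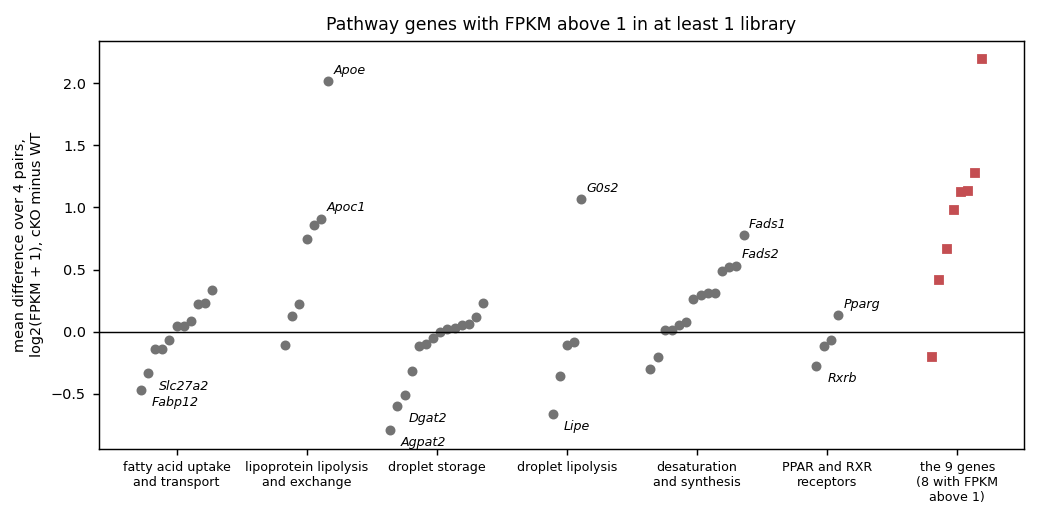
Mean difference in log2(FPKM + 1) between MFN2 cKO and MFN2 WT over the 4 pairs for the 55 pathway genes with FPKM above 1 in at least 1 library, by list (grey points, the genes with the largest means named), beside 8 of the 9 genes of the report (red squares). Apoe (2.01) and Fabp3 (2.19) are the highest, and the droplet storage genes reach down to -0.79 for Agpat2.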

How the data were processed

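RNA-seq of spermatocytes was analysed in 8 libraries, 1 for each combination of stage, genotype and age. The authors extracted RNA, made NEBNext libraries, sequenced paired-end reads on an Illumina HiSeq and deposited FPKM for each gene, made with Novomagic. The submitters' processing notes name CASAVA 1.4, Bowtie 0.12.2, mm8 and mm9, but the coordinates of the table are those of GRCm38 (6 of the 9 genes have the same start and end in GENCODE M21). The deposited FPKM are not log-transformed, and multiplied by gene length they fall on whole reads within 0.01 reads for 100% of values. These reads gave depth and counting intervals (95%, exact binomial, Clopper-Pearson). The depth of 14340665 to 20379950 reads on genes puts 3 reads, the limit that a count of 0 allows, at 0.149 to 0.207 FPKM for a gene of 1 kb.

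Stage and age were tested with limma 3.58.1 in R 4.3.3 (lmFit, eBayes with trend) on log2(FPKM + 1), keeping the 21175 genes that exceeded 1 FPKM in any library, with genotype, age and stage as terms and Benjamini-Hochberg adjustment over all genes, called at an adjusted p under 0.05. Genotypes were compared within each pair with no test, among genes that exceeded 1 FPKM in either library. The fit and the intervals were checked on simulated data. The 9 genes, the pathway and marker lists were chosen with earlier results of these data known. Genes of the lists were named for the 2 highest mean FPKM and the 2 largest mean genotype differences, and for each of the 9 genes the 3 with the highest Pearson correlation. The alternatives were a pseudocount of 0.1, no filter, protein-coding genes only, median-of-ratios scaling applied once more, a block for each pair, voom on the reads, the ratio with nothing added and each library left out. Scaling to total reads, the fit without both L/Z libraries at PD 52 and the stage by age term were added after seeing the data. The authors state DESeq2 for differential expression, which was not repeated here since the table holds FPKM.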

Additional observations from a re-analysis of the deposited data

Results flagged for a closer look

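*Fabp3*, *Cd36*, *Scd1* and *Plin1* stood out because their difference between PD 52 and PD 24 ran in opposite directions at the 2 stages, upward in both P pairs and downward in both L/Z pairs. The difference in P minus that in L/Z, on the log2(FPKM + 1) scale, was 3.49 for *Fabp3*, 1.79 for *Cd36*, 1.00 for *Scd1* and 0.66 for *Plin1*. In limma the adjusted p of these terms was 0.430 for *Fabp3*, 0.805 for *Cd36*, and 0.846 for *Scd1* and *Plin1*, so that none passed the test of the difference. The difference with age was larger in P than in L/Z in 2 of 2 genotypes for each gene, which follows from how they were picked. The share of all genes with these signs was not counted.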

How the results depend on the processing

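The further median-of-ratios scaling returned the same values, since the authors' FPKM already stand on that scale. With a pseudocount of 0.1, and with the ratio of FPKM with nothing added, 5 of the genes above 1 FPKM in P at PD 24 and 6 in L/Z at PD 24 were at least 2-fold higher in MFN2 cKO, in place of 3 and 3, and 5 in each pair at PD 52 in place of 4 and 4. The genotype difference of no gene changed sign under any alternative, and scaling to total reads moved the median of all genes in P at PD 24 from -0.10 to 0.05. The cause of the changes below was not tested.

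Without both L/Z libraries at PD 52, 0 genes were called higher and 1 lower in P, and 0 lower at PD 52. The stage difference then changed sign for *Fabp3* (-0.92), *Cd36* (-0.65) and *Plin1* (-0.26), and the age difference for *Plin1* (0.16), all with adjusted p above 0.05 in limma, while *Fabp3* was called higher at PD 52, at 2.97 with an adjusted p from limma of 0.0460. In that fit the stage difference of *Angptl4* was -0.95 in place of -0.41 and that of *Scd1* 0.0077 in place of 0.51. The age difference of *Cd36* was 1.45 in place of 0.55 and that of *Angptl4* -0.12 in place of -0.66. With no filter, and with a block for each pair, 0 genes were called lower at PD 52. Leaving out each library in turn gave 1 to 2 genes called lower in P and 0 to 1 called lower at PD 52. It also turned the sign of some differences that had not been called. The stage difference of *Cd36* ran from -0.094 without P MFN2 cKO at PD 52 to 0.55, that of *Plin1* from -0.11 without L/Z MFN2 cKO at PD 52 to 0.23, with further negative values without P MFN2 WT at PD 52 (-0.0084) or P MFN2 cKO at PD 52 (-0.024). The age difference of *Plin1* ran from -0.26 to 0.0034 without L/Z MFN2 cKO at PD 52, and that of *Scd1* from -0.11 without P MFN2 cKO at PD 52 to 0.40. The stage call of *Pltp* held under all 16 alternatives and the age call of *Plin2* under 15 of 16. The labels give no replicate numbers. The block for each pair of libraries, given above, changed no call but the age call of *Scd2*. With 1 library per group the spread within a group is unknown, and for *Lpl*, *Cd36* and *Plin1* counting error is wide.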
